A study of Mus musculus with 2 samples.

Results

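Cd9 and 8 further genes of the tetraspanin family (Cd63, Cd53, Cd37, Cd81, Cd82, Tspan13, Tspan32 and Tspan33) were followed across the blood cell types of mouse bone marrow in sc-RNA-seq data. The members were chosen by gene symbol, as 9 of the 13211 genes in the tables, with earlier results of these data known, and all 9 were listed in both libraries. Of these earlier results, the Cd9 ratio between the genotypes in mature neutrophils was among those known, so it is given here as a description.

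The Col1a1fspKO mice (Fsp1-Cre;Col1a1flox/flox) were designed to lose type I collagen in cells of the Fsp1 lineage, and the WT littermates (Cre-negative;Col1a1flox/flox) carried the same floxed alleles without Cre. Femur and tibia marrow from 2 mice of 2 months of age was pooled per genotype, live cells were sorted, and 1 library per genotype was made with the 10x 3′ v2 chemistry, which counts mRNA molecules by unique molecular identifiers (UMIs). Since each genotype is 1 library, no test between genotypes is possible, and every interval below covers counting error only. Genotype, pool, library and depth cannot be told apart. Cre is driven by the promoter of Fsp1 (S100a4), and S100a4 itself was detected in 312 of the 1309 Col1a1fspKO cells and in 321 of the 1169 WT cells. The targeted gene gave no check of the labels, since Col1a1 had 3 UMIs in Col1a1fspKO and was not listed for WT.

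The libraries held 8647722 UMIs (Col1a1fspKO) and 8624469 UMIs (WT), with medians of 4954 and 5534 per cell, and they shared 2 cell barcodes. The shallowest WT cell had 2909 UMIs, whereas Col1a1fspKO cells went down to 2540. Each cell was assigned to the gate (marker list) with its highest mean z-score among 13 lists, none of which holds a tetraspanin. Of the 2478 cells, 510 lay within 0.25 of another gate, so neighbouring gates hold a range of cells rather than sharply separate types. Cells were assigned by the marker lists, so the rank of markers within a gate is no independent check of it. In every gate, more of its own markers than of any other list were among the 10 leading genes by fold. The immature and mature B cell gate had only 1 such marker (Ms4a1), and the preneutrophil gate was led by Cxcl12, a stromal marker; 1 WT cell of that gate had 114 of the 151 stromal marker UMIs of the library.

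Tetraspanins are small proteins that cross the cell membrane several times and gather integrins, immunoglobulin-family proteins and proteases into membrane domains. They shape adhesion, receptor signalling and the sorting of vesicles, and blood cells are known by the set they carry. CD9 is best known from platelets and egg cells, CD63 from lysosomes and from the granules of activated basophils, CD81 from B cells, and CD37 and CD53 from leukocytes in general. CD82 was described as a suppressor of metastasis. TSPAN32 is a blood cell tetraspanin, and TSPAN33, which escorts the protease ADAM10, takes part in red cell formation.

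All 9 genes were matched to RefSeq (GRCm38.p6, the build mm10 of the submitters' processing notes). Cd9 lies on chromosome 6 (chr6:125460266-125494760), Tspan33 on the same chromosome (chr6:29694214-29718558), and Tspan32 on chromosome 7 (chr7:143004907-143019486), where Cd81 (chr7:143052750-143067930) follows after a gap of 33264 bases with 0 coding genes between. The bases before the transcript start of the RefSeq promoter table, as far as they lie outside the gene in both RefSeq and GENCODE vM21, are shown for 3 members, because the results below turn on them: Cd9 as a member with its highest levels in the neutrophil gates, Tspan33 as that of the erythroid gate, and Tspan32 as the member counted as higher in the most gates. They lie at chr6:125494792-125495010 (minus strand, 219 bases), chr6:29693964-29694213 (plus strand, 250 bases) and chr7:143004796-143004906 (plus strand, 111 bases), and read 5′ to 3′:
Cd9: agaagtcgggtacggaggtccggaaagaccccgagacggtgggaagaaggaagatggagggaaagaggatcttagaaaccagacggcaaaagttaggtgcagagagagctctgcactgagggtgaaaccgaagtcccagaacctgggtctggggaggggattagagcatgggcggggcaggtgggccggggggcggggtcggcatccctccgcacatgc
Tspan33: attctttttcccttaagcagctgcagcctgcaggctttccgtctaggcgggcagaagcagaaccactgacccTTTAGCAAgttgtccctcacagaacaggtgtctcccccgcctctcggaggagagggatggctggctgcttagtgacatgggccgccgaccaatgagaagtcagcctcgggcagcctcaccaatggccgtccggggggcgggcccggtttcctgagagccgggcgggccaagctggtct
Tspan32: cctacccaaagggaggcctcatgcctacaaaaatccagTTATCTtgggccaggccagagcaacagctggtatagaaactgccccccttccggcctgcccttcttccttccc
Capitals mark matches, on either strand, to the motif of GATA factors (letters AGATAA), the motif of C/EBP factors (TTGCNNAA), the PU.1 motif (GAGGAAGT) or the TATA box (TATAAA). The search covered the 250 bases before and the 50 bases after each start in the promoter table. Of 32851 promoters of that length, 11.2% held the GATA motif, 10.8% the C/EBP motif, 3.2% the PU.1 motif and 13.6% the TATA box. Tspan32 held 1 match to the GATA motif, starting 212 bases before the start, Tspan33 held 1 match to the C/EBP motif, 178 bases before the start, and Cd9 held 0 matches to any of the 4. Such matches describe the letters and not the binding of a factor.

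To compare levels, UMIs of a gene were summed over the cells of a gate and scaled to 1000000 UMIs of that gate (CPM). With 3′ counting, this level does not depend on transcript length. Among all cells, Cd53 was the most abundant member (175 CPM in Col1a1fspKO, 160 CPM in WT). Cd82 was the least abundant, at 42.8 and 39.2 CPM. The other 7 members lay between them, and their distribution over the gates differed widely.

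**Figure D1:**
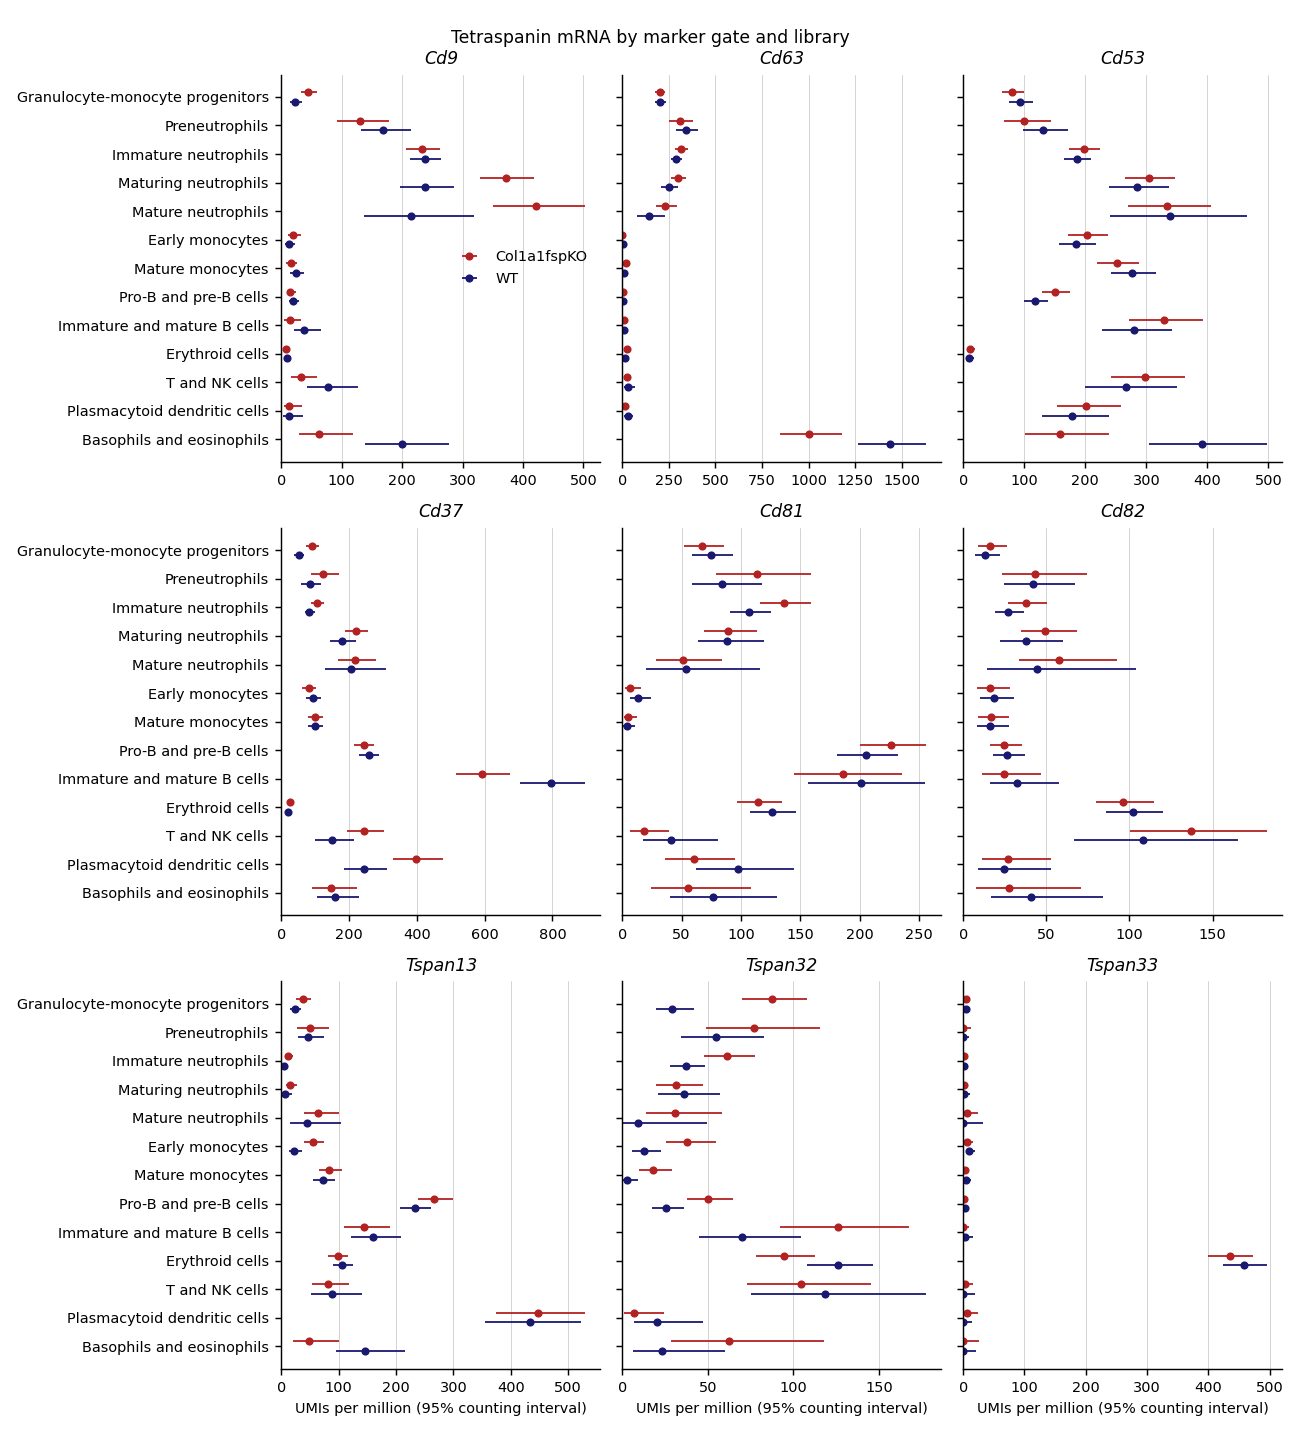
Level of each tetraspanin (x axis, CPM with exact Poisson 95% intervals) in the 13 marker gates (y axis), for the Col1a1fspKO library (red) and the WT library (dark blue). Tspan33 stands at 435 and 458 CPM in the erythroid gate and at 10 CPM or less elsewhere, whereas Cd53 is spread over all gates but the erythroid one.

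Cd9 mRNA was higher in the neutrophil stages than in granulocyte-monocyte progenitors (GMPs) and was low in nearly every other gate. In WT it went from 22.2 CPM in GMPs to 169 CPM in preneutrophils and 237 CPM in immature neutrophils. Maturing neutrophils had 238 CPM and mature neutrophils 214 CPM, or 220 and 371 CPM with cells assigned by cluster. In Col1a1fspKO it went from 44.2 CPM in GMPs to 130 CPM in preneutrophils, 233 CPM in immature, 371 CPM in maturing and 422 CPM in mature neutrophils. In the marker gates, the libraries were within counting error of each other at the preneutrophil and immature stages and apart in GMPs and at the later stages. For GMPs and mature neutrophils this depended on how cells were assigned, as given below.

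The step from immature to maturing neutrophils was 1.60-fold in Col1a1fspKO (95% counting interval 1.34 to 1.90) and 1.0-fold in WT (0.803 to 1.24). The final step, from maturing to mature neutrophils, was 1.14-fold (0.911 to 1.41) and 0.900-fold (0.554 to 1.41), so neither interval excluded 1. With cells assigned by cluster this step was 1.74-fold in Col1a1fspKO (1.39 to 2.16) and 1.69-fold in WT (0.997 to 2.72), so the course of WT at the last stage depended on how cells were assigned. From GMPs to mature neutrophils the level was 9.55-fold higher in Col1a1fspKO (6.72 to 13.8) and 9.64-fold higher in WT (5.18 to 18.0). Both the GMP and the mature level were higher in Col1a1fspKO, so these folds do not show that the course was the same.

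Outside the neutrophil series, Cd9 was between 7.80 and 37.9 CPM in both libraries in the monocyte, B lineage, erythroid and plasmacytoid dendritic cell gates. In T and NK cells the levels were 32.8 CPM (Col1a1fspKO, 11 UMIs) and 77.2 CPM (WT, 15 UMIs). In basophils and eosinophils they were 62.2 CPM (9 UMIs in 17 Col1a1fspKO cells) and 199 CPM (34 UMIs in 26 WT cells). In both of these gates the WT level was the higher one, the opposite of the mature neutrophil gate, but they rest on fewer than 50 UMIs and were not counted in either direction.

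At the level of cells, a Cd9 UMI was found in 63 of 80 mature neutrophils of Col1a1fspKO (78.8%, Clopper-Pearson 95% interval 68.2 to 87.1%) and in 15 of 29 of WT (51.7%, 32.5 to 70.6%). Median depth in this gate was 3146 UMIs in Col1a1fspKO and 3452 in WT. With every cell thinned to 2500 UMIs, the shares were 68.8% (57.4 to 78.7%) and 34.5% (17.9 to 54.3%). In maturing neutrophils the thinned shares were 56.2% and 42.4%, and in immature neutrophils 47.4% and 40.2%. The erythroid gate, where Cd9 was lowest, had thinned shares of 2.94% and 0% at median depths of 9450 and 11434 UMIs. Thinning takes more from these deeper cells, and RNA free in the droplets was not measured, so these shares do not give its background. The 0 of 105 thinned WT erythroid cells allows a share of thinned cells with a UMI of up to 2.86% (3 counts of the total). At full depth these cells had 12 Cd9 UMIs.

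Most Cd9-positive cells had few UMIs of the gene. Of the 461 positive Col1a1fspKO cells 244 had 1 UMI, and no cell had more than 7. In WT, 227 of 394 had 1 UMI, and 1 cell of the immature neutrophil gate had 23, or 6.69% of that gate's Cd9 UMIs, in a cell of 20916 UMIs with 0 platelet marker UMIs. Platelet and megakaryocyte markers (4 of the 6 fixed genes were listed; Ppbp and Treml1 were not) had 0 UMIs in the mature neutrophils of Col1a1fspKO and 1 in those of WT. Their summed level was 2.74 CPM or less in maturing neutrophils and up to 111 CPM in basophils and eosinophils.

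**Figure D2:**
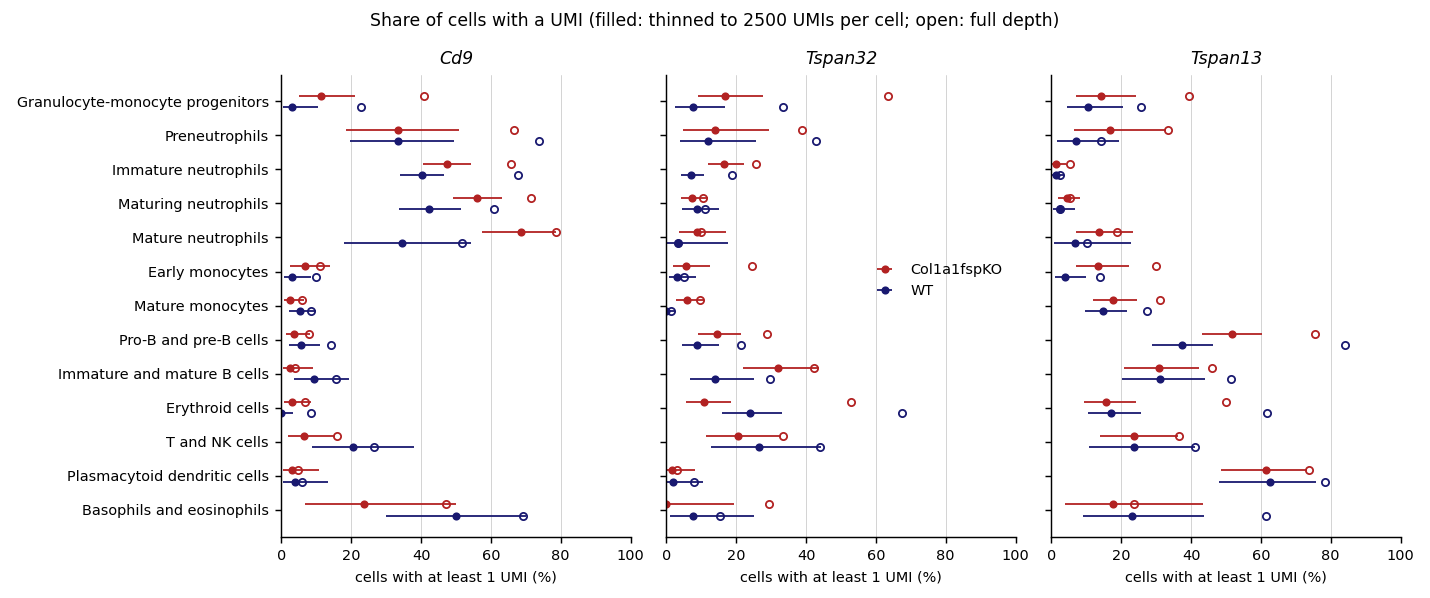
Share of cells with at least 1 UMI of Cd9, Tspan32 or Tspan13 (x axis, %) by gate (y axis), for Col1a1fspKO (red) and WT (dark blue). Filled points are cells thinned to 2500 UMIs with Clopper-Pearson 95% intervals, and open points are cells at full depth: thinned Cd9 shares in mature neutrophils are 68.8% and 34.5%.

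Cd63, the lysosomal tetraspanin, was highest in basophils and eosinophils (1002 CPM in Col1a1fspKO, 1439 CPM in WT). It made up 64.2% and 58.2% of the UMIs of the 9 members in that gate. A single Col1a1fspKO cell there had 38 of the 145 UMIs. Cd63 was also well detected in GMPs (202 and 204 CPM), preneutrophils (311 and 342 CPM) and immature neutrophils (317 and 289 CPM). In mature neutrophils it was at 231 and 143 CPM, which was 0.730-fold (0.555 to 0.948) and 0.494-fold (0.279 to 0.811) the immature level. Cd63 was thus lower at the last stage in both libraries. Early monocytes had 0 UMIs of Cd63 in Col1a1fspKO and 2 in WT, where 3 UMIs would be 4.07 and 3.72 CPM.

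Cd53 and Cd37, the leukocyte tetraspanins, were shared by most gates. Cd53 was between 80.3 and 392 CPM in 12 of the 13 gates in both libraries, and at 11.7 and 10.2 CPM in the erythroid gate. It made up 49.3% and 54.8% of the members' UMIs in mature monocytes, more than any other member there. It was higher with maturation in both the neutrophil and the B lineage. Mature neutrophils had 4.15-fold (3.06 to 5.65) and 3.65-fold (2.43 to 5.38) the GMP level, and immature and mature B cells had 2.18-fold (1.71 to 2.77) and 2.37-fold (1.81 to 3.08) the level of pro-B and pre-B cells.

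Cd37 had its highest level, 591 CPM (Col1a1fspKO) and 797 CPM (WT), in immature and mature B cells. It was 2.43-fold (2.02 to 2.91) and 3.10-fold (2.63 to 3.65) the level of pro-B and pre-B cells. A Cd37 UMI was found in 84.6% of the Col1a1fspKO and 95.3% of the WT cells of the gate. In the neutrophil series Cd37 was 2.06-fold higher in maturing than in immature neutrophils in Col1a1fspKO and 2.16-fold in WT. Like Cd53, it was lowest in the erythroid gate, at 24.2 and 18.9 CPM.

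Cd81, a tetraspanin of B cells, had its highest level in pro-B and pre-B cells (227 and 205 CPM), next to immature and mature B cells (186 and 201 CPM). Erythroid cells had 115 and 126 CPM, and immature neutrophils 136 and 107 CPM. The neighbouring B lineage gates did not differ beyond counting error, at 0.820-fold (0.618 to 1.08) and 0.980-fold (0.740 to 1.28). Mature monocytes had 4.71 and 3.71 CPM, from 4 and 3 UMIs. In the neutrophil series Cd81 was lower at the end: mature neutrophils of Col1a1fspKO had 0.374-fold (0.205 to 0.636) the immature level, and in WT the ratio of 0.50 had an interval that held 1 (0.181 to 1.11).

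Cd82 was highest in T and NK cells (137 and 108 CPM) and in erythroid cells (96.0 and 102 CPM). The WT intervals of 66.9 to 165 CPM and 85.8 to 120 CPM overlapped, and in WT the order turned with cells that scored under 1 on every list left out (116 and 130 CPM). In the other 11 gates it was between 13.1 and 57.8 CPM.

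Tspan13 was highest in plasmacytoid dendritic cells (448 CPM in Col1a1fspKO, 433 CPM in WT), followed by pro-B and pre-B cells, at 267 and 233 CPM. A UMI was found in 73.8% and 78.4% of the plasmacytoid dendritic cells. With cells that scored under 1 on every list left out, the levels in this gate were 582 and 595 CPM, and with cells assigned by cluster 548 and 628 CPM. In the neutrophil series it was lowest at the immature stage (11.9 and 4.83 CPM), 0.238-fold and 0.102-fold the preneutrophil level. Mature neutrophils had 64.7 and 44.6 CPM, 5.42-fold (2.58 to 11.7) and 9.23-fold (2.31 to 33.8) the immature level, although from 19 UMIs in Col1a1fspKO and 5 in WT. That gate also held B cell RNA, as given below, and whether its Tspan13 UMIs came with that RNA was not tested.

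Tspan33, the erythroid tetraspanin, had 558 UMIs in 102 Col1a1fspKO erythroid cells and 629 UMIs in 105 WT erythroid cells, or 435 CPM (400 to 473) and 458 CPM (423 to 496). A UMI was found in 95.1% and 91.4% of these cells. It accounted for 47.9% and 47.2% of the members' UMIs in the gate. In all other gates together it had 21 UMIs in Col1a1fspKO and 24 in WT.

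Tspan32 had no single leading gate. In WT it was highest in erythroid cells (126 CPM), T and NK cells (118 CPM) and immature and mature B cells (70.0 CPM). In Col1a1fspKO immature and mature B cells came first (126 CPM), with T and NK cells at 104 CPM, erythroid cells at 94.4 CPM and GMPs at 87.4 CPM. The intervals of the highest 3 gates overlapped in Col1a1fspKO, at 92.1 to 168 CPM for B cells, 72.7 to 145 CPM for T and NK cells and 78.3 to 113 CPM for erythroid cells. In both libraries it was 2.52-fold and 2.74-fold higher in immature and mature B cells than in pro-B and pre-B cells.

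**Figure D3:**
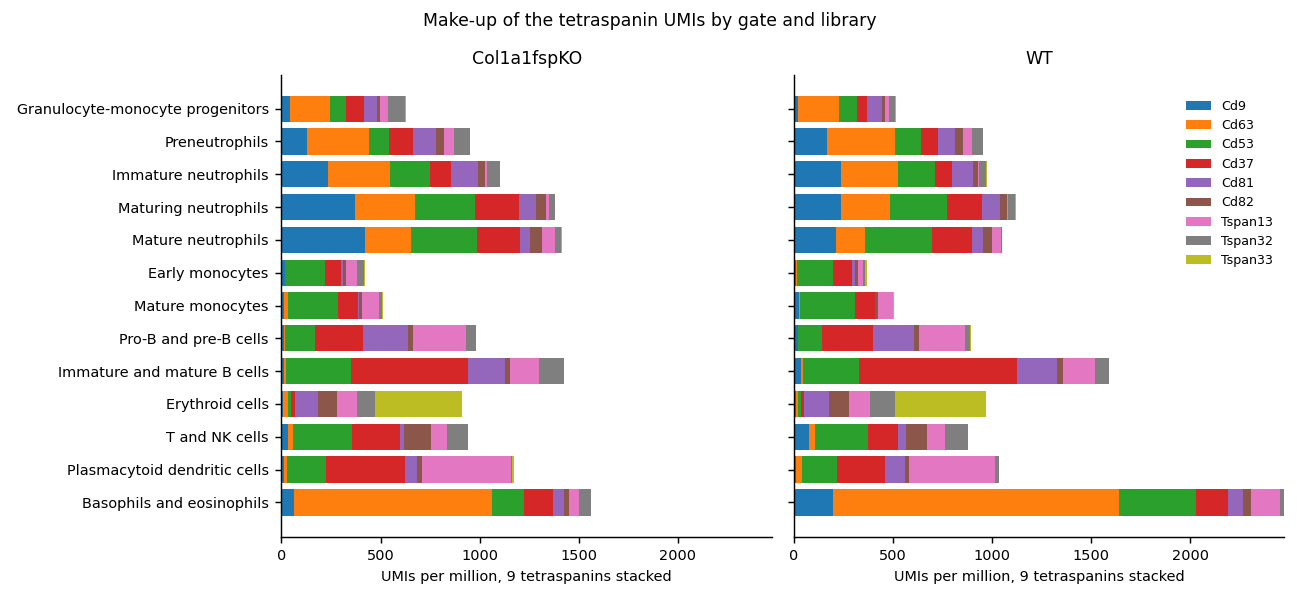
CPM of the 9 tetraspanins, stacked (x axis), in each gate (y axis) for the Col1a1fspKO library (left) and the WT library (right). Cd63 makes up most of the bar of basophils and eosinophils (64.2% and 58.2%), Tspan33 the largest part of that of erythroid cells (47.9% and 47.2%), and Cd9 takes 29.8% and 20.3% of that of mature neutrophils.

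Set against all genes, 4 of the 9 members (Cd63, Cd37, Tspan13 and Tspan33) had a leading gate. By this rule the same gate was highest in both libraries and at least 4-fold above the median gate. Other gates can still hold the gene: the median gate of Cd37 had 145 and 149 CPM, and the second gate of Cd63 had 317 and 342 CPM. Of the 6167 genes with at least 200 UMIs, 11.1% met the rule, but the members were chosen with earlier results of these data known. The highest gate was 185-fold and 218-fold above the median gate for Tspan33, 37.8-fold and 46.6-fold for Cd63, 6.92-fold and 6.04-fold for Tspan13, and 4.07-fold and 5.34-fold for Cd37. Cd9 was 12.9-fold and 6.27-fold above the median gate, but its highest gate was mature neutrophils in Col1a1fspKO and maturing neutrophils in WT. Assigning cells by cluster put it in mature neutrophils in both, at 581 and 371 CPM.

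Genes with a pattern like each member's were listed by Pearson's r of log2(CPM + 10) over 26 points, the 13 gates of both libraries, among those 6167 genes. The points of a library share its cells' depth and sorting, so r is a description. For Cd9 the 5 nearest were Dgat1 (r = 0.95), a triglyceride synthase, Tmem40 (r = 0.94), Arrb2 (r = 0.93), the beta-arrestin of chemokine receptors, Vasp (r = 0.92), which acts on actin filaments, and Syne1 (r = 0.92). For Tspan33 they were Rec114, Kel, a red cell blood group protein, and Epb42, a red cell skeleton protein, each with r = 0.98. Cd63 was nearest to Igf1r (r = 0.94) and Hdc (r = 0.90), the histamine-forming enzyme. Cd53 was nearest to Chic2 and Limd2, and the actin regulator Coro1a, all with r = 0.91. Cd37 was nearest to Prkcb (r = 0.88), a kinase of B cell receptor signalling, and Tspan13 to Foxn3 (r = 0.91). For Cd82 and Tspan32 the highest r was 0.77 (Dapk2) and 0.65 (Myc).

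To ask whether the members differed between the genotypes, the ratio of Col1a1fspKO over WT was taken in each gate. A gene was counted as higher or lower where it had at least 50 UMIs in both libraries together, the ratio was at least 1.5-fold, and its interval excluded 1. Over all cells, 0 of the 9 members were counted. The highest ratio was that of Tspan32 (1.33, 1.16 to 1.52) and the lowest that of Tspan33 (0.884, 0.789 to 0.990). Of all genes so compared, 2.3% were higher and 2.24% were lower.

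By gate, 62 of the 117 gene and gate pairs had enough UMIs. Of these, 12 were higher in Col1a1fspKO, 1 was lower, and 49 were counted in neither direction. For all genes, 2.68% of the gene and gate pairs were higher and 3.79% lower. The share of 19.4% for the members is not independent of how they were chosen, and the pairs of a gene share its libraries. Without the 510 cells near another gate, 6 of the 54 pairs with enough UMIs were higher, although all 68 log2 ratios of single members stayed within their counting intervals. The 12 pairs came from Tspan32 (4), Cd9 (3), Cd37 (3), Cd63 (1) and Tspan13 (1). For Tspan32, Cd9 and Cd37 the GMP gate was among them, and its cells differed between the libraries. In that gate 19 of 71 Col1a1fspKO cells scored under 1 on every list, whereas 4 of 66 WT cells did. The GMP markers summed to 7380 against 10339 CPM, the WT level being the higher one. The GMP ratios of these genes thus compare gates of unlike make-up.

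**Figure D4:**
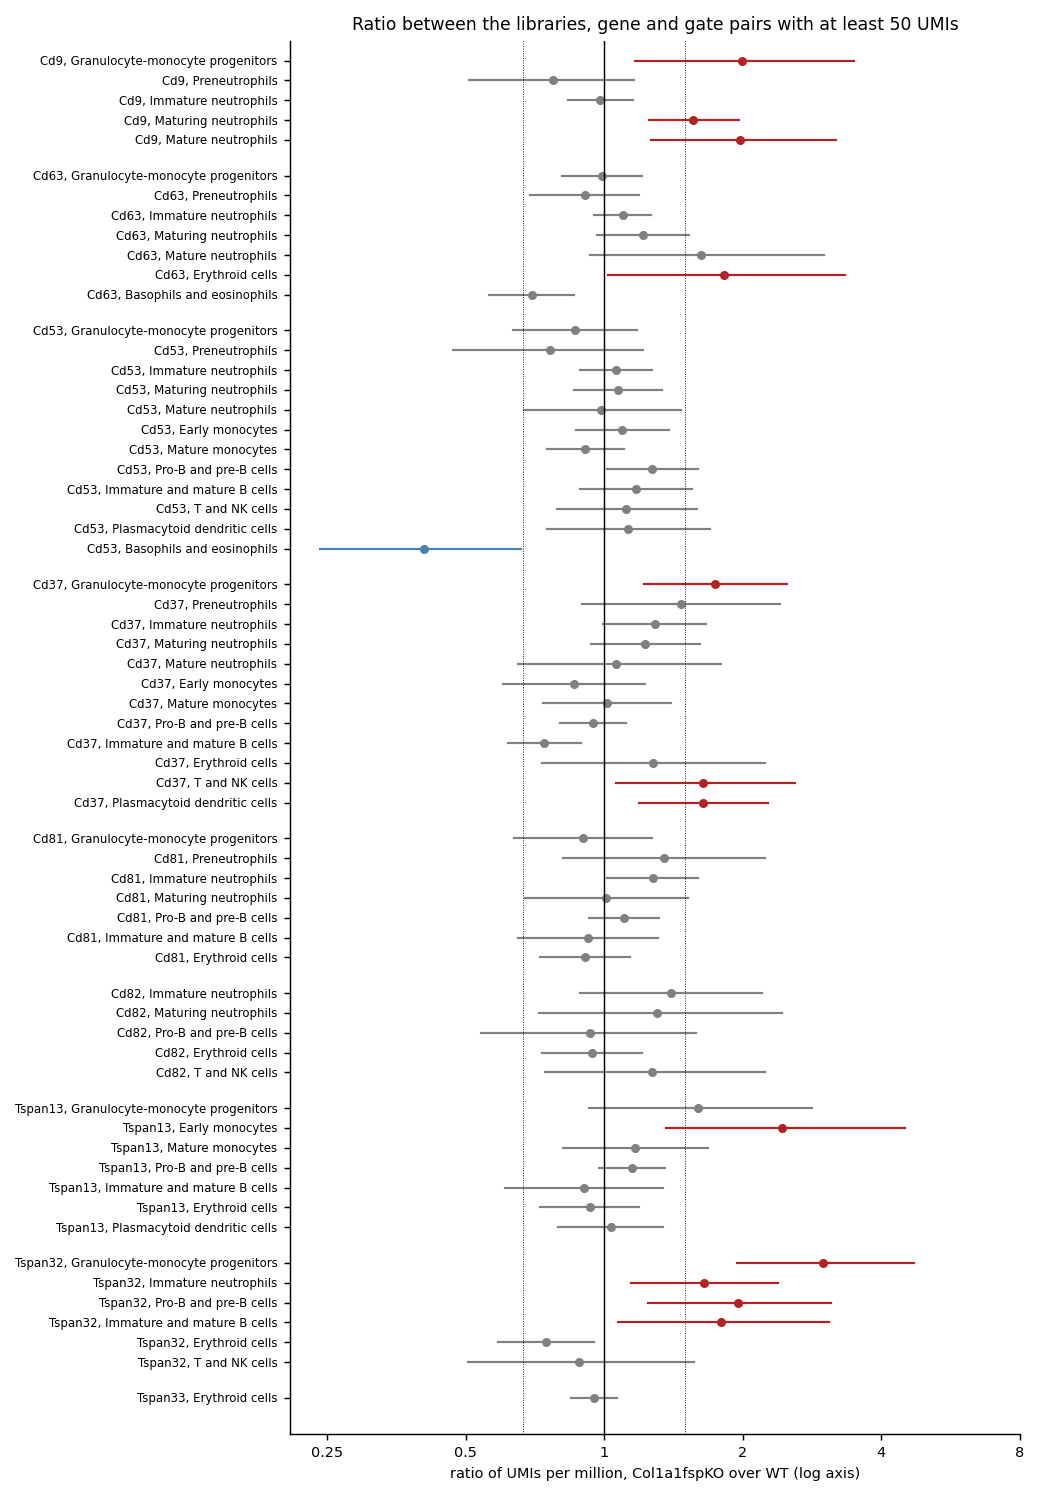
Ratio of Col1a1fspKO over WT (x axis, log scale, with exact binomial 95% counting intervals) for the 62 gene and gate pairs with at least 50 UMIs (y axis). Red marks the 12 pairs counted as higher in Col1a1fspKO, blue the 1 pair counted as lower (Cd53 in basophils and eosinophils), and grey the other 49, with dotted lines at 1.5-fold.

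Cd9 was higher in Col1a1fspKO in 3 of the 5 gates with enough UMIs. In mature neutrophils, 124 UMIs in 80 cells against 24 UMIs in 29 cells gave a ratio of 1.97 (1.27 to 3.19). This gate also held B cell RNA, and more of it in WT: Cd74 and Cd79a, named after their values were seen, had 36 UMIs in 7 of the 80 Col1a1fspKO cells and 81 UMIs in 8 of the 29 WT cells. Of the 81 UMIs, 40 were in 1 WT cell. Without the cells with a Cd74 or Cd79a UMI the Cd9 ratio was 1.60 (0.996 to 2.68), from 439 and 275 CPM in 73 and 21 cells, so its interval held 1. The 10 listed B lineage markers had 27 UMIs (91.9 CPM) and 25 UMIs (223 CPM) in the gate. In maturing neutrophils, 271 and 113 Cd9 UMIs gave 1.56 (1.25 to 1.96). In immature neutrophils the ratio was 0.980 (0.833 to 1.15) and in preneutrophils 0.772 (0.507 to 1.16). GMPs had a ratio of 1.99 (1.17 to 3.49), from 44 and 22 UMIs. The GMP gate of Col1a1fspKO held 27 platelet marker UMIs, 22 of them in 1 cell, and that of WT held 6; without cells with such a UMI the ratio was 1.98 (1.12 to 3.63). The direction in GMPs turned with cells assigned by cluster (0.841, 0.607 to 1.16), and the same assignment left the mature neutrophil ratio at 1.56 with an interval that held 1 (0.967 to 2.66). Without cells near another gate the maturing neutrophil ratio was 1.46 (1.12 to 1.93), under 1.5-fold.

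The mature neutrophil gate itself held 6.11% of the Col1a1fspKO cells (4.88 to 7.55%) and 2.48% of the WT cells (1.67 to 3.54%). Depth also differed there, since 31 of the 80 Col1a1fspKO cells were shallower than any WT cell. These 31 cells had a Cd9 level of 516 CPM, the 49 deeper ones had 385 CPM, and the 29 WT cells had 214 CPM. Compared above the shared minimum of 2909 UMIs, the ratio was 1.80 (1.13 to 2.97). Without the cell of this gate with the most Cd9 UMIs in each library the ratio was 2.30 (1.41 to 3.96), and without cells with a platelet marker UMI it was 1.90 (1.22 to 3.08).

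Of the 745 genes with enough UMIs in mature neutrophils, 3.49% were higher and 10.5% lower, and the median gene was at a log2 ratio of -0.09. Cd9 was at 0.98 on this scale, and of the other 3 members tested there Cd63 was at 0.70, Cd37 at 0.09 and Cd53 at -0.02. The interval of Cd63 held 1 (0.931 to 3.0 as a ratio), whereas it excluded 1 with cells assigned by cluster (ratio 3.71, 1.37 to 14.1), without the 20 most abundant genes (1.75, 1.01 to 3.24) and without the cell of this gate with the most Cd63 UMIs in each library (2.14, 1.12 to 4.51). The other 5 members had between 2 and 24 UMIs in the gate over both libraries.

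**Figure D5:**
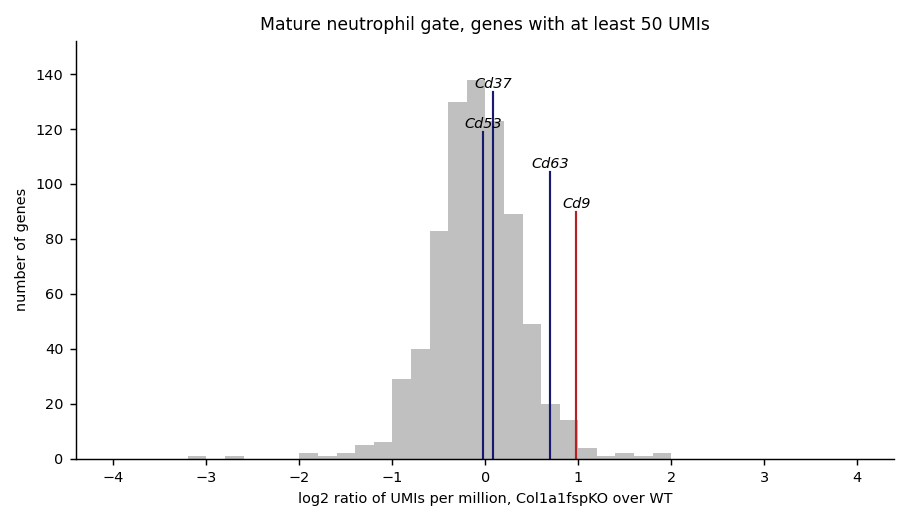
Histogram of the log2 ratio of Col1a1fspKO over WT (x axis) for the 745 genes with at least 50 UMIs in the mature neutrophil gate (y axis, number of genes), with the 4 tetraspanins among them marked by lines. Cd9 (red) lies at 0.98, Cd63 at 0.70, Cd37 at 0.09 and Cd53 at -0.02, against a median of -0.09.

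Tspan32 was higher in Col1a1fspKO in 4 of the 6 gates with enough UMIs. GMPs, the gate of unlike make-up, had 87 UMIs against 29, a ratio of 2.99 (1.94 to 4.72). Pro-B and pre-B cells had 57 and 32 UMIs (1.95, 1.24 to 3.11), immature and mature B cells 46 and 24 (1.80, 1.07 to 3.08), and immature neutrophils 72 and 54 (1.65, 1.14 to 2.39). Early monocytes (28 and 10 UMIs, ratio 3.06) and mature monocytes (15 and 2 UMIs, ratio 7.14, 1.66 to 64.4) pointed the same way with fewer UMIs.

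Erythroid cells went the other way, with 121 and 173 UMIs and a ratio of 0.749 (0.589 to 0.950), short of 1.5-fold. The erythroid markers took 287212 CPM of that gate in Col1a1fspKO and 231769 CPM in WT. The median gene of the gate was at a ratio of 0.952. Whether the marker share bears on the Tspan32 ratio was not tested. T and NK cells had a ratio of 0.882 (0.507 to 1.56) and maturing neutrophils 0.881 (0.450 to 1.76). In GMPs and both B lineage gates Tspan32 was also at least 1.5-fold higher with cells assigned by cluster, at 1.82 (1.33 to 2.49), 1.94 (1.25 to 3.04) and 2.65 (1.47 to 4.98). In immature neutrophils that assignment gave 1.40 (0.976 to 2.01), and in immature and mature B cells the interval held 1 above the shared minimum of 2909 UMIs (0.915 to 2.82) and without the cell of this gate with the most Tspan32 UMIs in each library (0.962 to 2.94).

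None of the 3 genes nearest to Tspan32 was counted over all cells. Tspan32 itself was not counted there either (ratio 1.33), so this does not set it apart from them. Cd81, 33264 bases away, had 856 and 869 UMIs (ratio 0.982), Ascl2, 35643 bases away, had 23 and 30 (ratio 0.765), and Tssc4, 48930 bases away, had 310 and 311 UMIs (ratio 0.994). Cd81 was also counted in neither direction in any of the 7 gates where it had enough UMIs.

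Cd37 was higher in Col1a1fspKO in GMPs (1.74, 1.22 to 2.50), T and NK cells (1.64, 1.06 to 2.60) and plasmacytoid dendritic cells (1.64, 1.19 to 2.27). Its highest gate, immature and mature B cells, had 591 CPM against 797 CPM, a ratio of 0.741 (0.617 to 0.889). With cells assigned by cluster none of these 4 intervals excluded 1, at 1.21 (0.919 to 1.60), 1.45 (0.930 to 2.32), 1.11 (0.718 to 1.74) and 0.962 (0.793 to 1.17). Early monocytes then had a ratio of 1.69 (1.16 to 2.52). Above the shared minimum of 2909 UMIs, immature and mature B cells had a ratio of 0.583 (0.471 to 0.718), past the 1.5-fold limit.

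Tspan13 was higher in Col1a1fspKO in early monocytes, with 40 UMIs against 18 and a ratio of 2.43 (1.36 to 4.51). Thinned to 2500 UMIs per cell, 13.3% of these cells had a Tspan13 UMI in Col1a1fspKO (7.08 to 22.1%) and 3.96% in WT (1.09 to 9.83%). In its leading gate, plasmacytoid dendritic cells, the ratio was 1.03 (0.795 to 1.34).

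Cd63 was higher in erythroid cells at low levels, 26.5 against 14.6 CPM (1.82, 1.02 to 3.34). Without the erythroid cell with the most Cd63 UMIs in each library that interval held 1 (0.953 to 3.79). Cd63 in basophils and eosinophils had a ratio of 0.696 (0.563 to 0.858), which was 0.594 (0.468 to 0.752) without the cell of the gate with the most Cd63 UMIs in each library, and Cd53 in the same gate, with 23 UMIs against 67, was the 1 pair counted as lower (0.405, 0.241 to 0.660). With cells that scored under 1 left out of this gate of 17 and 26 cells, the Cd63 ratio was 0.859 (0.691 to 1.06), and the log2 ratio of Cd53 went from -1.30 to -1.06. Without cells with a platelet marker UMI, which were 9 of the 17 and 14 of the 26 cells, Cd53 had 8 and 14 UMIs and a log2 ratio of -0.63. Cd82, in 5 gates, and Tspan33, in the erythroid gate (0.950, 0.846 to 1.07), were counted in neither direction.

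Further tetraspanins were rarer. The tables listed 13 more (Cd151, Rom1 and 11 Tspan genes), with 1 UMI (Tspan18) to 405 UMIs (Tspan14) in all. Of the 11 with at least 50 UMIs over all cells, 0 were higher and 0 lower, where 2.3% and 2.24% of all genes were, so the count is that of the background. Their median log2 ratio was -0.17, against -0.04 over all genes tested.

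Of 25 genes fixed as partners of tetraspanins, 21 were listed, and 0 of the 18 with enough UMIs were counted over all cells (median log2 ratio 0.04), again near the 2.3% and 2.24% of all genes. The list held the integrin chains Itgb1, Itga4 and Itgam, the proteases Adam10 and Adam17, and Igsf8, a partner of CD9 and CD81. Igsf8 had 202 UMIs against 151, a ratio of 1.33 (1.08 to 1.66). In mature neutrophils, where 3.49% of all genes were higher, 5 partners had enough UMIs. Cd44, the hyaluronan receptor, was higher there with 50 UMIs against 7 (2.73, 1.23 to 7.13), and the integrin chains Itgb2 (1.08) and Itgam (1.22) had intervals that held 1. Cd44 had enough UMIs only through its higher Col1a1fspKO count, so it could be counted only as higher.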

How the data were processed

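Bone marrow cells of 1 Col1a1fspKO and 1 WT library were analysed. The deposited values are UMI counts of genes in single cells, not normalized. Per the labels, the authors used Cell Ranger (version not given in the sources used here) and mm10. Each table held 1 sample, and the limits in the methods (200 to 7000 genes, at most 10% mitochondrial UMIs) removed no cell. Doublets were kept, since no caller was run. A gene listed for 1 library was taken as 0 in the other; 12312 genes were listed for both. The members and gene lists were chosen with earlier results of these data known.

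In Python 3.11.15 (scanpy 1.11.5, scipy 1.17.1), ln(1 + UMIs per 10000) was z-scored per gene over all cells and averaged over each marker list, and a cell was given the list with the highest mean. Of the fixed markers, Ighd, Trbc1 and Trbc2 were not listed. Intervals are exact Poisson for levels, exact binomial for ratios and Clopper-Pearson for shares, all at 95%. UMIs reduce amplification error, but these intervals leave out variation between mice. The calculations were tested on simulated data. All 9 members are named, other genes by most UMIs or by likeness of pattern, with the 5 nearest for Cd9 and up to 3 for each other member. The genes nearest to Cd81 and some partner genes are not reported here.

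Alternatives were cells assigned by cluster (Leiden, resolution 1.2, 27 principal components, 2000 variable genes), cells within 0.25 of another gate left out, means over single cells, CPM without the 20 most abundant genes, median-ratio scaling, a shared UMI minimum, cells with a platelet marker or the cell of each gate and library with the most UMIs of the gene left out, and shares thinned to 2500 UMIs. Leaving out cells that scored under 1, the cell with at least 10 stromal UMIs, and mature neutrophils with a Cd74 or Cd79a UMI, was added after seeing the data.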

Additional observations from a re-analysis of the deposited data

How the results depend on the processing

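The 68 log2 ratios of single members in a gate or over all cells were recomputed under 10 alternatives, which gave 675 values. Some of them could hardly move. Ratios over all cells do not change when cells are only reassigned, and the stromal alternative left out 1 cell. A value can also stay within its counting interval while its pair is no longer counted. Of the 675 values, 663 moved by less than the counting interval, 11 moved by more, and 1 reversed: with cells assigned by cluster the log2 ratio of Cd9 in granulocyte-monocyte progenitors went from 0.99 to -0.25. That assignment accounted for 7 of the 11 that moved, and it left no cells in the preneutrophil gate. The cause was not tested. The number of pairs higher in Col1a1fspKO was 12, and it was 6 without cells near another gate, where 54 in place of 62 pairs had enough UMIs. The number of pairs lower was 1, and it was 2 with means over single cells, with a shared UMI minimum and without the cell of each gate with the most UMIs of the gene. The Cd9 level in mature neutrophils moved from 422 to 581 CPM in Col1a1fspKO and from 214 to 371 CPM in WT with cells assigned by cluster. The Cd9 ratio there had an interval that held 1 under that assignment and without cells with a Cd74 or Cd79a UMI. The gate with the highest level of a member was kept in 14 or 15 of 18 gene and library pairs under each of 4 ways of assigning or averaging cells. Gates under 50 UMIs, such as monocytes for Cd9, limit what can be seen at this depth. No paired analysis was possible because each genotype was 1 library.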
